A study of Mus musculus with 4 samples.

Results

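The transcripts of *Trp53*, which encodes p53, and of 9 genes that p53 regulates or that restrain it were measured by RNA-Seq in hematopoietic stem cells (HSCs) of mice with and without *Id2*, an inhibitor of E-protein transcription factors. The genes were chosen by symbol: *Trp53*, *Mdm2*, *Mdm4*, *Ppm1d*, *Ccng1*, *Trp53inp1*, *Sesn1*, *Sesn2*, *Phlda3* and *Zmat3*. All 10 were found among the 19354 genes of the expression table, and all 10 were among the 15895 genes whose mean over the libraries reached 1 CPM (read counts scaled to the depth of each library).

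HSCs were sorted from bone marrow as LSK FLT3- CD48- CD150+ cells, LSK being lineage-negative cells with Sca-1 and c-Kit. The controls (*Id2+/+*) were *Mx1-Cre; Id2+/+* mice, and the deleted group (*Id2Δ/Δ*) were *Mx1-Cre; Id2Fl/Fl* mice, so both genotypes carried the Cre transgene. Both were given pIpC, a double-stranded RNA that switches on the interferon-inducible *Mx1* promoter, 2 weeks before the sort. The mice were 8 to 16 weeks old. Cells of 14 *Id2+/+* and 15 *Id2Δ/Δ* mice were pooled over 2 experiments, and each genotype had 2 libraries. Which library came from which experiment is not given in the sources used here, so p-values measure only the spread between these 2 libraries, which may be technical. *Mx1-Cre* also acts outside HSCs, and all 4 libraries followed an interferon response, so the effect of pIpC itself cannot be told apart here.

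p53 is a transcription factor that stays scarce because MDM2, a ubiquitin ligase, and its relative MDM4 bind it and hold it down. Stress signals loosen that hold, and p53 then switches on genes for cell cycle arrest, DNA repair, apoptosis and metabolic control, among them *Mdm2* itself, which closes a feedback loop. In HSCs p53 is known for keeping cells quiescent and for removing damaged ones. Much of p53 control acts on the protein, which mRNA levels do not show.

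The promoters of these genes were searched for the p53 half-site, the 10-base consensus of which a full p53 response element holds a pair. RefSeq promoter windows (GRCm38.p6) of 300 bases, from 250 before to 50 after a transcription start, were used for 8 of the 10 genes, in 10 windows, and not for *Trp53inp1* and *Zmat3*. The consensus reads the same on both strands, so 1 search covers both. It was present in the windows of 5 of the 8 genes (62.5%), against 2745 of all 32851 windows (8.36%) and 8.24% of the 11305 genes of the expression table with a window. The stretches of 60 bases that hold it are shown as the letters behind this count. p53 targets are known in part through such elements, so the count is not independent of the choice of genes, and no half-site was found in the windows of *Mdm4*, *Phlda3* and *Sesn2*. They are written 5′ to 3′ on the gene's strand, with the half-site in capitals.
Trp53 (chr11:69580259-69580318, plus strand): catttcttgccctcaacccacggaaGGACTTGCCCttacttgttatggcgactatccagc
Mdm2 (chr10:117710910-117710969, minus strand): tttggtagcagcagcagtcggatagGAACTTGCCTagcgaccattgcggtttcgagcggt
Ppm1d (chr11:85311097-85311156, plus strand): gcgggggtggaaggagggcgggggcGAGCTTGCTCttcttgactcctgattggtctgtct
Ccng1 (chr11:40755437-40755496, minus strand): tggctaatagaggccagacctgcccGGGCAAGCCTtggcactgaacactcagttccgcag
Sesn1 (chr10:41887241-41887300, plus strand): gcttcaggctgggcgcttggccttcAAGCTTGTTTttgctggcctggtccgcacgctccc
Counted in bases from the transcription start, the first base of the half-site lay at -75 in *Trp53*, -132 in *Ppm1d*, -173 in *Sesn1*, -185 in *Ccng1* and -186 in *Mdm2*. A pair of half-sites with no spacer was then scored by its mismatches over 20 bases. *Ccng1* had 1 mismatch, a score matched or bettered by 0.0883% of all windows. *Trp53*, *Mdm4* and *Sesn1* had 3 mismatches in their best windows, reached by 6.29% of windows. *Mdm4* and *Sesn1* each had another window, with 6 mismatches, which 98.5% of windows reach. For these genes the share of single windows thus understates how often a best window would reach 3. *Ppm1d* had 4, reached by 30.2% of windows, and *Mdm2*, *Phlda3* and *Sesn2* had 5, a score that 76.6% of windows reach. These matches describe letters in a short window and say nothing about binding, and p53 elements known in introns lie outside it.

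The values were log2 CPM, quantile-normalized by the authors so that the libraries share 1 distribution. Whole reads recovered from values below 32 CPM gave depths of 14200000 and 15700000 reads for *Id2+/+* and 17800000 and 18800000 for *Id2Δ/Δ*. *Id2* had 93 and 98 reads in *Id2+/+* and 0 and 0 in *Id2Δ/Δ*, where a count of 0 allows up to 3 reads. Over all tested genes the *Id2+/+* libraries correlated at r = 0.972 and the *Id2Δ/Δ* libraries at 0.942, below every pair of libraries of different genotypes (0.950 to 0.964). The summed level of 9 HSC markers was 4382 to 4465 CPM in *Id2+/+* and 3042 to 3600 CPM in *Id2Δ/Δ*, with 5 of the 9 below and 1 above both *Id2+/+* libraries. Neutrophil markers summed to 43.8 to 132 CPM and 16.3 to 74.7 CPM, macrophage markers to 40.9 to 44.0 and 38.5 to 43.5 CPM, and megakaryocyte markers to 454 to 510 and 513 to 598 CPM. All 6 tested neutrophil markers were lower in replicate 2 than in replicate 1 in both genotypes, as were 26.1% of all tested genes. *Hba-a1*, *Hba-a2* and *Mmp9* were at 0 reads in *Id2Δ/Δ* replicate 1. Erythroid markers summed to 24.3 to 35.3 and 29.5 to 33.5 CPM, and *Cd48* with *Flt3*, which the sort selects against, to 48.3 to 57.7 CPM over the 4 libraries. The part of these differences in the values below was not tested, and in bulk RNA a change in cell makeup and a change in RNA per cell cannot be told apart.

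Whether deletion of *Id2* moved p53 transcripts was asked with limma, fitted on all tested genes, with Benjamini-Hochberg adjustment. No gene of the 10 passed an adjusted p under 0.05, and none passed an unadjusted p under 0.05. Over all 15895 genes the same fit called 0 (0.0%) at the adjusted threshold and 742 (4.67%) at the unadjusted one. The deleted gene *Id2* itself, with a log2 fold change of -7.31, had a limma adjusted p of 0.910. A missing call at this threshold therefore does not show that a gene was unchanged. With the replicate number as an added term it called none of the 10 and 0.00629% of all genes. The fold changes below are therefore values with their intervals, given as *Id2Δ/Δ* minus *Id2+/+* on the log2 scale.

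**Figure D1:**
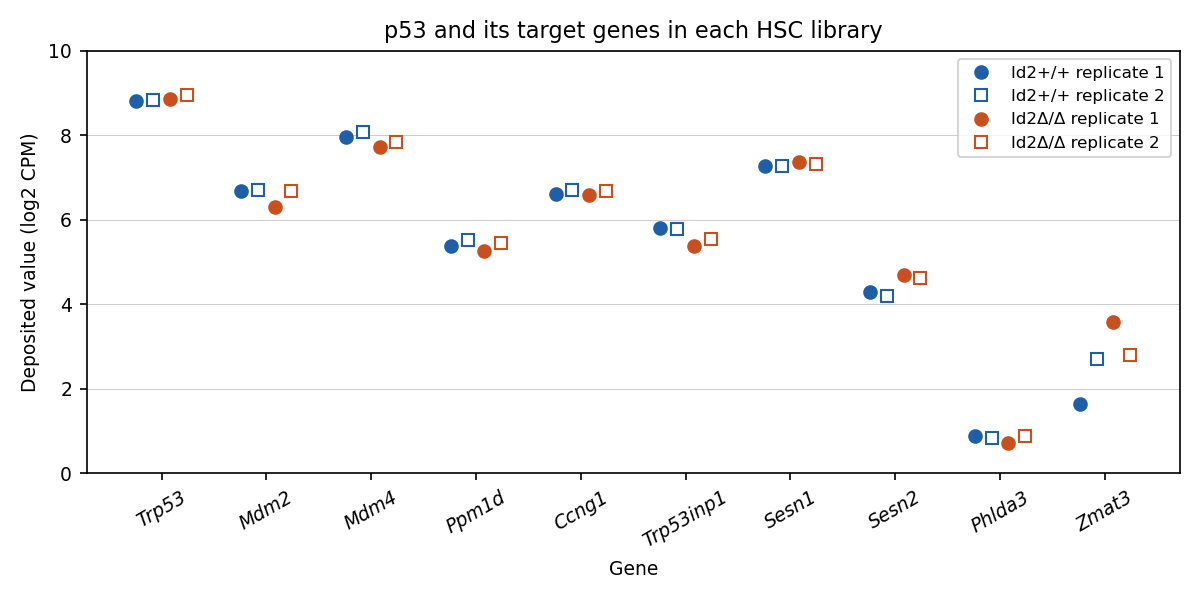
Deposited log2 CPM of *Trp53* and the 9 genes with it (vertical axis) in each library (1 point per library). *Trp53* sits at the top near 9 in all 4 libraries, while the points of *Zmat3* spread from 1.65 to 3.58.

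*Trp53* was among the most abundant transcripts of these HSCs and nearly level across the libraries. It (ENSMUSG00000059552, GRCm38 chr11:69580359-69591873, plus strand) had 8.81 and 8.83 log2 CPM in *Id2+/+* and 8.86 and 8.96 in *Id2Δ/Δ*, higher than 98.9% of tested genes. The *Id2Δ/Δ* libraries were both above the *Id2+/+* ones, by a margin of the same order as the gap between replicates. The log2 fold change was 0.09 (SE 0.10, limma adjusted p = 0.924), a fold of 1.06 with a 95% interval of 0.90 to 1.25. Of the 10 genes it alone had an interval within 1.25-fold of no change, as did 2.85% of all tested genes.

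Of the transcripts of the inhibitors *Mdm4*, *Mdm2* and *Ppm1d*, none passed the test, and those of *Mdm4* alone did not overlap between the genotypes. *Mdm4*, whose product masks the activation domain of p53 (ENSMUSG00000054387, chr1:132959484-133030561, minus strand), had 7.97 and 8.09 log2 CPM in *Id2+/+* and 7.72 and 7.85 in *Id2Δ/Δ*. Both *Id2Δ/Δ* libraries were below both *Id2+/+* libraries. The log2 fold change was -0.24 (SE 0.11, limma adjusted p = 0.910), with a 95% interval from 0.70-fold to 1.02-fold. Corrected for a trend of the fold changes with transcript length it was -0.14. Reads of the pseudogene *Mdm4-ps* numbered 8 to 18 a library.

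*Mdm2*, the ubiquitin ligase and itself a p53 target (ENSMUSG00000020184, chr10:117688875-117710758, minus strand), had 6.68 and 6.71 log2 CPM in *Id2+/+* and 6.31 and 6.69 in *Id2Δ/Δ*. Only *Id2Δ/Δ* replicate 1 stood low, and the groups overlapped. The log2 fold change of -0.20 (SE 0.16, limma adjusted p = 0.910) became -0.01 without that library. *Ppm1d*, which encodes the phosphatase WIP1 that reverses activating phosphorylation of p53 (ENSMUSG00000020525, chr11:85311244-85347066, plus strand), had 5.37 and 5.53 against 5.25 and 5.44 log2 CPM. Its groups overlapped too, with a log2 fold change of -0.10 (SE 0.17, limma adjusted p = 0.940), which was -0.01 without *Id2Δ/Δ* replicate 1 and -0.02 without *Id2+/+* replicate 2.

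The balance of p53 with its inhibitors was read as a log2 difference within each library, which a constant scaling of that library cannot move. *Mdm4* minus *Trp53* was -0.84 and -0.75 in *Id2+/+* and -1.14 and -1.11 in *Id2Δ/Δ*, a difference of -0.33. Corrected for transcript length that difference was -0.24. *Mdm2* minus *Trp53* was -2.13 and -2.12 against -2.55 and -2.27, a difference of -0.28 that was -0.15 without *Id2Δ/Δ* replicate 1 and -0.42 without *Id2Δ/Δ* replicate 2. In both ratios the inhibitor stood lower relative to *Trp53* in each *Id2Δ/Δ* library than in either *Id2+/+* library, and the exact two-sided permutation p was 0.33, the smallest that 2 libraries against 2 allow. *Mdm2* minus *Mdm4* was -1.29 and -1.37 against -1.41 and -1.16, with groups that overlapped (difference 0.04, exact permutation p = 1).

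**Figure D2:**
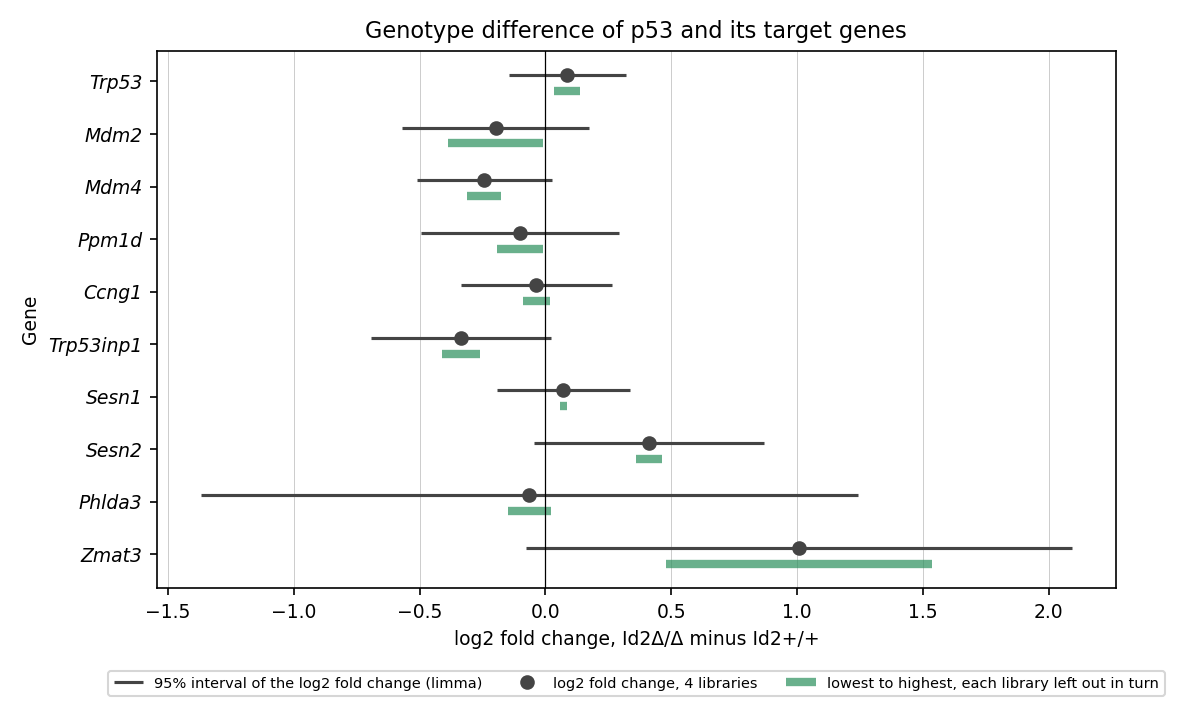
Log2 fold change of each gene, *Id2Δ/Δ* minus *Id2+/+* (horizontal axis), with the 95% interval from limma (dark line) and the lowest to highest value when single libraries were omitted (green bar). Every interval includes 0, and it is narrowest for *Trp53* and widest for *Phlda3*.

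Among the targets, the sestrins, stress proteins that restrain mTORC1, differed in level and in how far the genotypes stood apart. *Sesn1* (ENSMUSG00000038332, chr10:41809935-41908424, plus strand) had 7.27 and 7.28 log2 CPM in *Id2+/+* and 7.36 and 7.33 in *Id2Δ/Δ*. The groups did not overlap, yet the log2 fold change was 0.07 (SE 0.11, limma adjusted p = 0.940), and its interval spanned 0.88-fold to 1.26-fold. *Sesn2* (ENSMUSG00000028893, chr4:132492032-132510501, minus strand) was the scarcer of the pair, with 4.29 and 4.19 log2 CPM, or 277 and 283 reads, in *Id2+/+*. In *Id2Δ/Δ* it had 4.70 and 4.61 log2 CPM, or 455 and 465 reads. Replicates of a genotype lay 0.10 and 0.08 apart and the genotypes stood well apart. The log2 fold change was 0.41 (SE 0.20, limma adjusted p = 0.910), a fold of 1.33 with an interval of 0.97 to 1.83, and it stayed between 0.36 and 0.46 whichever library was omitted. *Sesn1* minus *Sesn2* was 2.98 and 3.08 in *Id2+/+* and 2.66 and 2.72 in *Id2Δ/Δ*, a difference of -0.34 (exact permutation p = 0.33).

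*Trp53inp1*, whose product links p53 to autophagy and cell death (ENSMUSG00000028211, chr4:11156431-11174379, plus strand), had 5.81 and 5.79 log2 CPM in *Id2+/+* and 5.39 and 5.54 in *Id2Δ/Δ*. Both *Id2Δ/Δ* libraries were lower, and the gap was wider than that between replicates. The log2 fold change was -0.33 (SE 0.15, limma adjusted p = 0.910), a fold of 0.79 with an interval of 0.62 to 1.02. Its range with each library left out was -0.41 to -0.26. *Ccng1*, cyclin G1, a long-known p53 target that works with a phosphatase on MDM2 (ENSMUSG00000020326, chr11:40748552-40755311, minus strand), had 6.61 and 6.71 against 6.58 and 6.67 log2 CPM. These values overlapped, and the log2 fold change was -0.04 (SE 0.13, limma adjusted p = 0.971; interval 0.79-fold to 1.20-fold). *Ccng1* thus had the promoter nearest to a full p53 element and a difference within its replicate spread.

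*Zmat3*, an RNA-binding zinc-finger protein gene (ENSMUSG00000027663, chr3:32334792-32366014, minus strand), had the largest fold change of the 10 and the largest spread. Its log2 CPM was 1.65 and 2.71 in *Id2+/+*, from 46 and 104 reads, and 3.58 and 2.79 in *Id2Δ/Δ*, from 214 and 125 reads. *Id2+/+* replicate 2 and *Id2Δ/Δ* replicate 2 differed by 0.08, whereas the libraries numbered 1 differed by 1.93. The log2 fold change was 1.01 (SE 0.46, limma adjusted p = 0.910), larger in size than that of 94.8% of tested genes, and the fold of 2.01 had an interval of 0.95 to 4.27. It was 0.48 without *Id2+/+* replicate 1, 0.61 without *Id2Δ/Δ* replicate 1 and 1.54 without *Id2+/+* replicate 2, and 0.55 with a pseudocount of 5 CPM. *Phlda3*, an inhibitor of AKT signalling (ENSMUSG00000041801, chr1:135766119-135769136, plus strand), was close to the filter with 0.89 and 0.85 against 0.72 and 0.89 log2 CPM. These came from 27, 29, 29 and 31 reads, and the interval of its log2 fold change of -0.06 (limma adjusted p = 0.991) ran from 0.39-fold to 2.37-fold, with the variance moderated by limma toward that of genes at the same level. The interval includes a 2-fold difference either way.

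Counted together, 4 of the 10 genes had *Id2Δ/Δ* libraries both above the *Id2+/+* libraries (*Trp53*, *Sesn1*, *Sesn2* and *Zmat3*), 2 had them both below (*Mdm4* and *Trp53inp1*), and 4 overlapped. Over all tested genes 19.0% lay apart with *Id2Δ/Δ* higher, 15.8% with it lower, and 34.8% in either direction, against 60.0% of these 10. Fold changes were above 0 in 4 genes and below 0 in 6, and 51.7% of all tested genes were above 0. The median log2 fold change was -0.05, beside 0.01 for all genes, and ran from -0.12 to 0.02 with each library left out. The 95% interval lay within 1.5-fold of no change for 6 genes (*Trp53*, *Mdm2*, *Mdm4*, *Ppm1d*, *Ccng1* and *Sesn1*), or 60.0%, against 36.6% of all genes. It lay within 2-fold for 8, the exceptions being *Phlda3* and *Zmat3*, and for 65.0% of all genes. These shares of all genes were not matched to the 10 for level.

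Levels were compared between genes as log2 CPM per kb of the longest annotated transcript (mean ± SD over the 4 libraries). *Trp53* was highest at 7.15 ± 0.07, above 98.1% of tested genes. *Sesn1* followed at 5.38 ± 0.04, then *Mdm4* at 5.08 ± 0.16, *Mdm2* at 4.94 ± 0.19 and *Ccng1* at 4.83 ± 0.06. *Mdm4* and *Mdm2*, and *Mdm2* and *Ccng1*, overlapped in their libraries. The transcripts of both direct inhibitors thus overlapped on this scale, well under that of *Trp53*. *Ppm1d* came next at 3.86 ± 0.12, *Trp53inp1* at 3.19 ± 0.20 and *Sesn2* at 2.65 ± 0.24. *Phlda3* at 0.32 ± 0.08 and *Zmat3* at -0.28 ± 0.79 were lowest and overlapped. The order was the same in each genotype taken alone, and 8 of the 10 kept their place when the mean transcript length was used. On that length *Mdm4* was at 6.80, above *Sesn1* at 6.19 and *Mdm2* at 5.85, so the overlap of *Mdm4* with *Mdm2* holds for the longest transcript only.

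**Figure D3:**
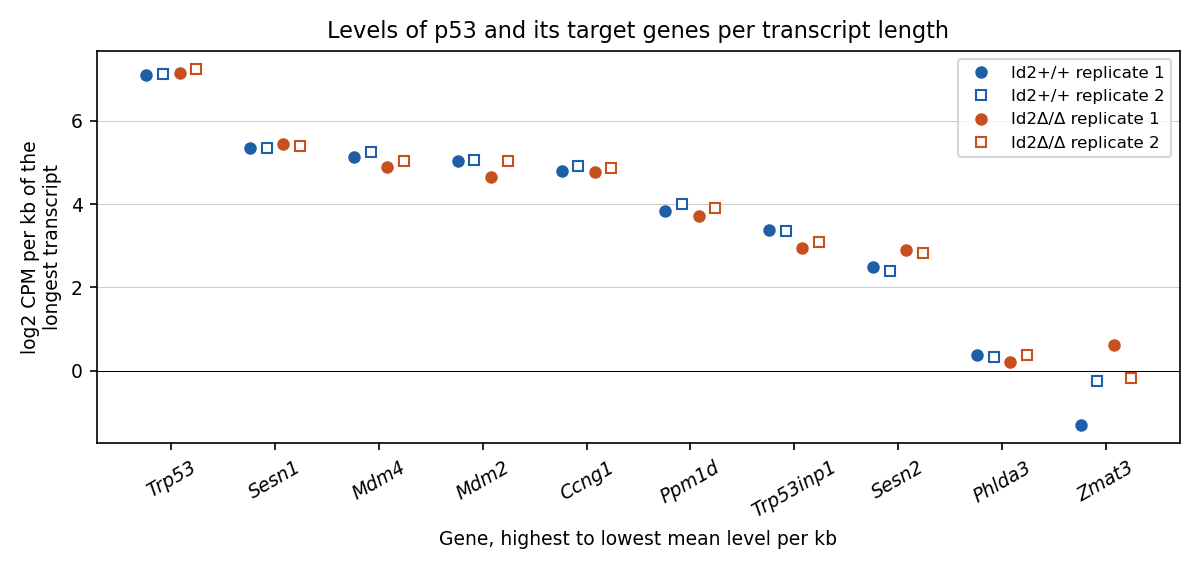
Level of each gene as log2 CPM per kb of its longest transcript (vertical axis), 1 point per library by genotype, with genes ordered by the mean. *Trp53* stands apart at 7.15 and the others run from *Sesn1* at 5.38 down to *Zmat3* at -0.28.

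The median absolute difference between replicates was 0.076 log2 units in *Id2+/+* and 0.144 in *Id2Δ/Δ*, against 0.189 and 0.287 for all tested genes. *Zmat3* was the exception, with replicates 1.06 and 0.79 apart, and *Mdm2* replicates were 0.38 apart in *Id2Δ/Δ*. All tested genes were not matched to the 10 for level, and the part of level in this was not tested. In mean log2 CPM *Trp53*, *Mdm4*, *Sesn1*, *Ccng1* and *Mdm2* each exceeded at least 82.7% of tested genes, while *Zmat3* exceeded 27.7% and *Phlda3* 10.6%. Some p53 targets of the other lists differed more between replicates, and *Cdkn1a*, *Btg2*, *Plk2*, *Gdf15* and *Pmaip1* are named here after their values were seen. *Cdkn1a*, the p21 cell cycle inhibitor, had 110 and 231 reads in *Id2+/+* and 43 and 205 in *Id2Δ/Δ*, a log2 fold change of -1.02 (SE 0.69) with overlapping groups. Replicate 2 exceeded replicate 1 by 0.95 log2 units in *Id2+/+* and by 2.21 in *Id2Δ/Δ*. For *Plk2*, a stress kinase gene, those differences were 0.945 and 1.78. The antiproliferative gene *Btg2* had 5.42, 6.71, 4.70 and 7.40 log2 CPM, a log2 fold change of -0.01 with replicates 2.70 apart in *Id2Δ/Δ*. *Gdf15*, a stress cytokine, had 10, 30, 0 and 33 reads, and *Pmaip1*, which encodes the cell death protein NOXA, had 4, 8, 0 and 75. Of the 12 arrest and quiescence targets, 7 were higher in replicate 2 in both genotypes and 3 lower in both, as were 23.9% and 26.1% of all tested genes. Of *Trp53* and the 9 genes with it, 5 were higher in both and 1 lower. No genotype difference could be read from *Cdkn1a* or *Btg2* at this spread.

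**Figure D4:**
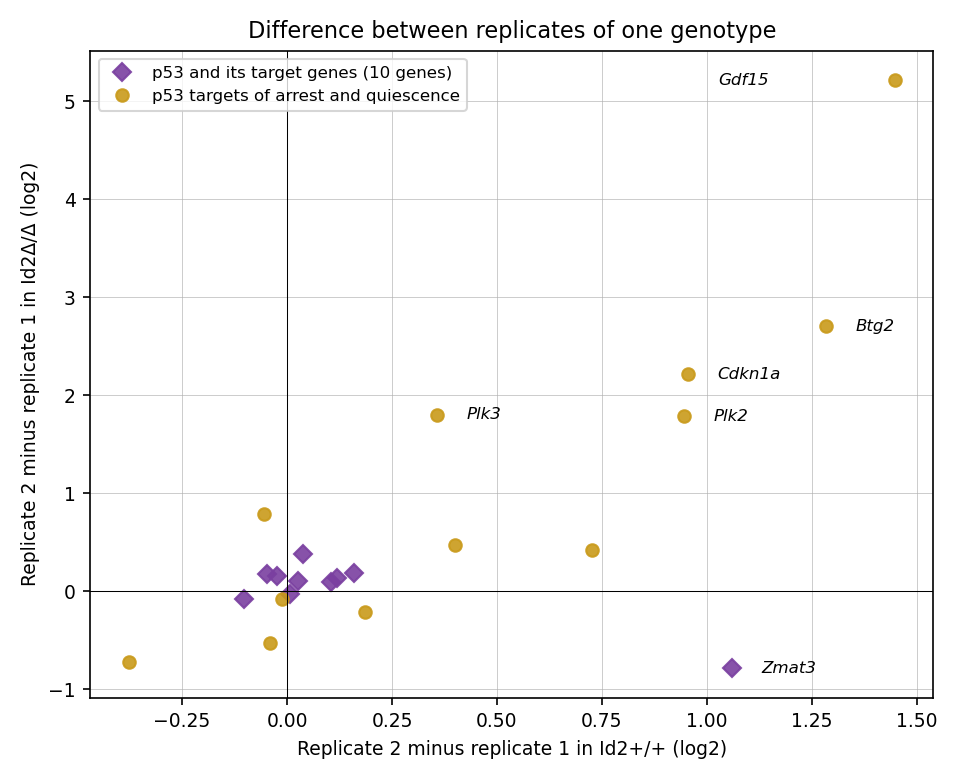
Replicate 2 minus replicate 1 in log2 CPM, *Id2+/+* on the horizontal and *Id2Δ/Δ* on the vertical axis, for the 10 genes and for the p53 targets of arrest and quiescence. Most of the 10 genes lie near the origin, with *Zmat3* off it, whereas *Cdkn1a* and *Btg2* lie to the upper right.

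The wider p53 pathway was followed through 7 lists, of which 75 of 78 genes were tested. None was called at an adjusted p under 0.05 by limma, 3 higher (*Polh*, *Cpt1c* and *Kat5*) and 3 lower (*Tigar*, *Atr* and *Atm*) passed an unadjusted p under 0.05 as did 1.72% and 2.95% of all genes, and 25 of the 75 (33.3%) did not overlap, close to the 34.8% of all genes. The median log2 fold change was 0.01, as for all genes. All the genes named from the lists had a limma adjusted p of 0.910 or above.

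Of the 42 tested p53 targets, 25 had a fold change above 0 and 17 below, with a median of 0.03. The arrest and quiescence list had a median of -0.16, with 4 of 12 above 0. *Ckap2*, a spindle protein gene (0.24), and *Gadd45a*, a growth arrest gene (-0.46), were its only genes whose libraries lay apart. The apoptosis list had a median of 0.05 with 9 of 11 above 0, and *Tnfrsf10b*, a TRAIL death receptor (0.71, SE 0.40), and *Pidd1* (0.19) lay apart. With 1 library left out they ran from 0.35 to 1.07 and from 0.08 to 0.30. *Bax* (0.05) and *Bbc3*, which encodes PUMA (0.06), did not. The repair list had a median of 0.03, with 4 of 7 above 0. *Polh*, the polymerase that copies past ultraviolet damage, had 191 and 218 reads in *Id2+/+* and 405 and 407 in *Id2Δ/Δ*, a log2 fold change of 0.70 (SE 0.21, limma adjusted p = 0.910). *Pcna* (0.14) and *Ddb2* (0.13) also lay apart.

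The metabolism and mTOR list was the most spread, with fold changes from -2.38 to 1.01 and 8 of 12 above 0. Its median was 0.10, or 0.15 corrected for transcript length. *Tigar*, which lowers glycolytic flux, had 65 and 87 reads in *Id2+/+* and 6 and 36 in *Id2Δ/Δ*. Its log2 fold change was -2.38 (SE 0.79, limma adjusted p = 0.910), and -1.22 to -3.54 with each library left out. *Gls2*, a mitochondrial glutaminase, had 50 and 29 against 7 and 21 reads, at -1.67 (SE 0.76). *Cpt1c* had 63 and 138 against 167 and 300 reads, at 1.01 (SE 0.43, limma adjusted p = 0.910), while *Fdxr* (0.43) and *Dram1*, an autophagy gene (0.64), were the other genes of the list whose *Id2Δ/Δ* libraries both lay above the *Id2+/+* ones. These genes moved with single libraries: leaving out 1 gave 0.51 to 1.52 for *Cpt1c*, 0.13 to 1.15 for *Dram1* and -2.35 to -0.98 for *Gls2*. The genes at both ends of this list thus rested on 6 to 300 reads a library.

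Of the 14 tested p53 activators 10 had a fold change below 0, with a median of -0.07, and 6 lay apart with *Id2Δ/Δ* lower, against 15.8% of all genes. Corrected for transcript length, 6 of the 14 were below 0 and the median was 0.02. *Atm* (-0.58, SE 0.14) and *Atr* (-0.55, SE 0.12), the kinases that start the DNA damage response, and the acetyltransferase gene *Ep300* (-0.26) had the smallest p of these, the limma adjusted p being 0.910 for each. Corrected for transcript length these values were -0.43, -0.43 and -0.11. *Kat5*, another acetyltransferase gene (0.37, SE 0.15), and *Chek2*, a kinase downstream of ATM (0.20), lay apart with *Id2Δ/Δ* higher. Of the 12 other inhibitors 8 were above 0, with a median of 0.05, or 9 with a median of 0.13 corrected for length. *Smyd2* (0.16), a methyltransferase gene, alone of these inhibitors lay apart. Of the 7 paralogues tested, *Phlda1* (-1.44, from 35, 53, 7 and 38 reads), *Trp53inp2* (-0.47) and *Ppm1a* (-0.11, or 0.01 corrected for length) lay apart with *Id2Δ/Δ* lower, and the median was -0.11 (-0.03 corrected for length). With 1 library left out *Phlda1* ran from -2.54 to -0.34 and *Trp53inp2* from -0.78 to -0.16. *Sesn3* and *Ccng2* overlapped. *Cdkn2a*, *Trp63* and *Trp73* were not found by symbol in the expression table, so they were not tested.

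**Figure D5:**
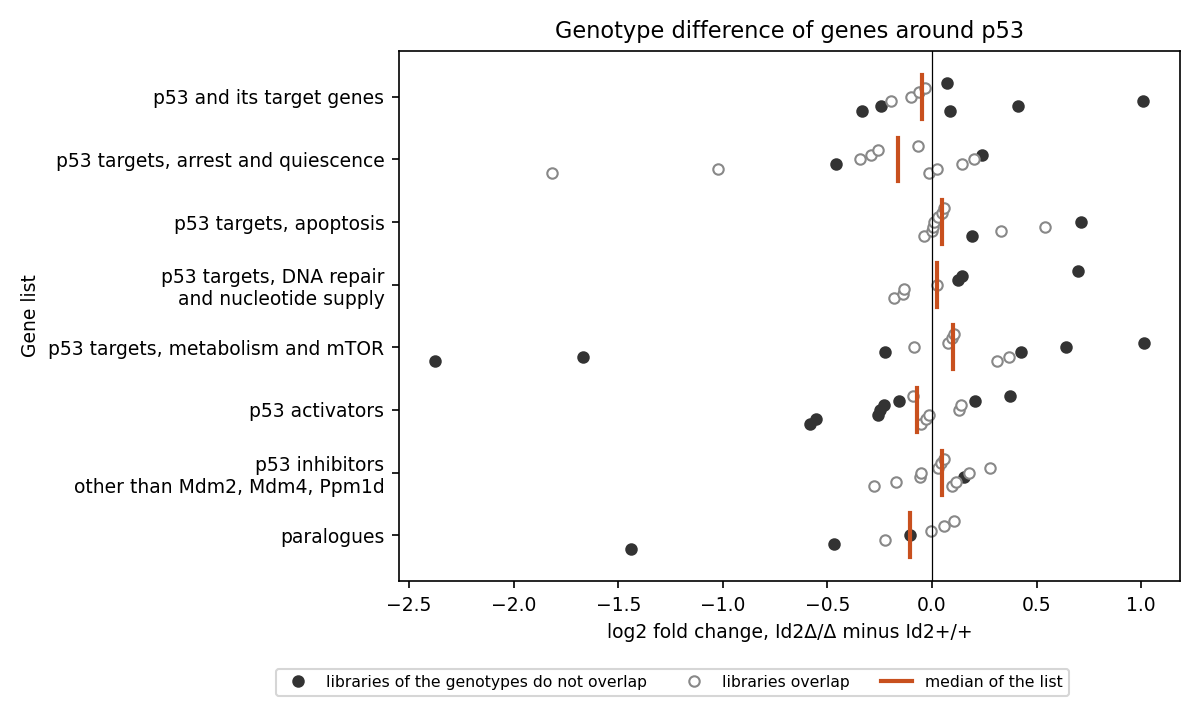
Log2 fold change of each tested gene (horizontal axis), *Id2Δ/Δ* minus *Id2+/+*, by list (rows), with filled points where the libraries of the genotypes did not overlap and the list median as a bar. The medians lie between -0.16 and 0.10, and the far points to the left are *Tigar*, *Gls2*, *Phlda1* and genes of the arrest list.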

How the data were processed

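RNA was from sorted HSCs pooled by genotype, with 2 libraries each. The deposited values were log2 CPM, which the authors quantile-normalized over the 4 libraries: 88.4% of ranks agreed within 0.1 between libraries. Per the labels, CASAVA 1.8.4, Trimmomatic 0.30, TopHat2 2.0.8, RSEM and STAR, and the builds mm9 and NCBIM37, are listed in the submitters' processing notes, with no role or order. Quantile normalization removes any shift common to all genes. Below 32 CPM (62.1% of values) normalized values could be read back as whole reads by depth, and intervals and floors on reads cover counting error only. The depth of 14200000 to 18800000 reads leaves genes near 1 CPM with few reads.

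The 4 libraries were grouped by the labels. The 15895 genes averaging 1 CPM or more entered limma 3.58.1 in R 4.3.3, with the prior variance trended on level and a single term for genotype. P-values were adjusted by Benjamini-Hochberg over all of them and called at an adjusted p under 0.05. The fit was run on simulated data with planted changes, and only their mean estimate was held to a limit. How many planted changes it called is not reported here. Ratios between genes of a library were compared by an exact two-sided permutation test. Positions and transcript lengths were from GENCODE M21 (GRCm38), matched by gene ID for 99.7% of genes. *Cop1* was read under its older symbol *Rfwd2*.

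Beside all 10 genes, genes past the threshold were named from each list and, failing that, in each direction the 3 with the smallest unadjusted p among those that did not overlap. Some genes that this rule takes are not reported here. The genes and lists were chosen with earlier results of these data known. Alternatives were a replicate block, a length correction, added pseudocounts of 0.1, 1 and 5 CPM, another filter, further normalization, no trend, an unadjusted p and each library left out.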

Additional observations from a re-analysis of the deposited data

How the results depend on the processing

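None of the 10 genes was called by limma at an adjusted p under 0.05 under any of the 15 other settings run, and none at an unadjusted p under 0.05, a threshold added after seeing the data that 742 of all tested genes passed. A replicate block called 1 gene of all tested (0.00629%), and 1 together with a length correction. Every other setting called 0 of all tested genes at the adjusted threshold, so the lack of calls is not particular to the 10 genes. No label ties a replicate number to one of the experiments, so no pairing was assumed. Deviations from the genotype means correlated at 0.0592 between libraries of the same number over all tested genes, and at 0.139 above 32 CPM. The block changed no other call, and a filter at 10 CPM left out *Phlda3* and *Zmat3*. Of 148 alternative values of single genes, 145 kept their direction and 8 genes had no reversal. The other filters, the fit without a trend and the replicate block cannot move a fold change in this design. Their values therefore kept their direction by construction, and every reversal came with a library left out. A pseudocount of 5 CPM took *Zmat3* from 1.01 to 0.55 and the median of the 10 genes from -0.05 to -0.02. With each library left out in turn *Ccng1* ran from -0.0879 to 0.0174, turning to 0.0174 without *Id2+/+* replicate 2 and to 0.0093 without *Id2Δ/Δ* replicate 1. *Phlda3* ran from -0.15 to 0.0240, turning to 0.0240 without *Id2Δ/Δ* replicate 1. The log2 ratio difference of *Mdm2* to *Mdm4* was -0.0426 with the length correction and -0.0759 without *Id2Δ/Δ* replicate 2, in a range of -0.0759 to 0.17. The cause of these turns was not tested. With 2 libraries a genotype, fold changes inside the interval given for a gene cannot be told apart.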
